A study of Mus musculus with 8 samples.

Results

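The 10 genes described here are regulators of the 2C program, the set of genes that mouse embryonic stem (mES) cells switch on when a few of them pass into a state resembling the 2-cell embryo. They were chosen by symbol, as 8 chromatin repressors and 2 activators, from the 54146 gene identifiers of each count table, and each of the 10 was found once. The repressors were Trim28, Setdb1, Kdm1a, Chaf1a, Chaf1b, Pcgf6, Rnf2 and Smchd1, and the activators were Dppa2 and Dppa4.

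ICM-derived mES cells (ICM, the inner cell mass of the blastocyst) were compared in 2 conditions by droplet single-cell RNA-seq, and both had been grown with feeder fibroblasts (MEF) in LIF/2i medium on gelatin. Control_ES cells were untreated, and CX-5461_ES cells had received CX-5461, an inhibitor of RNA polymerase I and so of rRNA synthesis. The labels list 4 samples per condition, but the cells of a condition stand in 1 table with no sample of origin, so a condition counts as 1 library, the design has no replicates, and the conditions could not be tested against each other. Levels are therefore given as CPM (each gene's share of the summed UMIs, scaled to a total of 1e6) of unique molecular identifiers (UMIs, each marking 1 captured RNA molecule), with exact 95% intervals, which cover counting error only and not the spread between cultures.

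The 2C program centres on the transcription factor DUX, which binds and activates genes such as Zscan4a-f as well as MERVL retroviral elements. In ES cells the Dux locus is held silent by repressors that place H3K9 methylation or other repressive marks on chromatin, or that rebuild nucleosomes behind the replication fork. DPPA2 and DPPA4 act together on the opposite side, binding CpG-rich promoters and activating Dux.

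There were 3838 barcodes for control and 4922 for CX-5461, of which 2525 and 4530 were taken as ES cells, with 42017711 and 64794378 UMIs. The median ES cell had 15428 UMIs in control and 14089.5 in CX-5461, and the median mitochondrial share was 1.94% and 4.13%. The 10 ES markers summed to 7593 CPM in control and 7984 CPM in CX-5461 ES cells, against 399 and 253 CPM in fibroblast-like cells. Clusters were named from these same marker lists, so the sums describe the selection and cannot check the labelled cell type. Summed fibroblast markers were at 128 CPM in control and 236 CPM in CX-5461 ES cells, with none of the 12 at 0, against 14160 and 9463 CPM in fibroblast-like cells. Their part in the results below was not tested. A further 1020 control barcodes with a median of 2293 UMIs formed a cluster that was given no name and was left out. The targets stood higher in CX-5461, with log2 ratios from 1.24 (Zscan4d) to 2.20 (Zscan4f) over the 6 Zscan4 genes, and Duxf3, the Dux gene of this annotation, was counted 3 times in control and 53 times in CX-5461, a ratio of 11.5 with an interval of 3.71 to 57.3.

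Promoters of 8 of the 10 genes were matched in RefSeq (GRCm38.p6), and each of the 8 held more CpG dinucleotides in the 250 bases before its start than the median of 32851 promoters, which was 6. The letters TTCCCGC, searched on both strands as part of the consensus of E2F factors, were present in 3 of the 8, those of Trim28, Chaf1a and Chaf1b, against 3.82% of all promoters in the table. A match describes letters and is not a bound site. TTCCCGC itself holds a CpG and the 8 promoters are CpG-rich, so the share over all promoters is not a like background. Promoters of like CpG content were not compared. These 3 are printed because they share these letters, and Chaf1a and Chaf1b encode subunits of the same complex. Each runs from position -250 to -1 before the start, 5′ to 3′ on the plus strand, which is the gene's strand, with the matched letters in capitals. In Trim28 (chr7:13023902-13024151) the match begins at -178, in Chaf1a (chr17:56040166-56040415) at -47 and in Chaf1b (chr16:93883651-93883900) at -227. The RefSeq start of Trim28 lies inside the longer Trim28 gene of GENCODE, which begins at position 12999114.
Trim28: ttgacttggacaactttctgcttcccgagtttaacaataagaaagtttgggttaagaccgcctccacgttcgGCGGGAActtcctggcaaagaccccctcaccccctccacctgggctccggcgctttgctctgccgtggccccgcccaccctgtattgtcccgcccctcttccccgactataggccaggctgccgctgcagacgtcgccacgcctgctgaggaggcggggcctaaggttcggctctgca
Chaf1a: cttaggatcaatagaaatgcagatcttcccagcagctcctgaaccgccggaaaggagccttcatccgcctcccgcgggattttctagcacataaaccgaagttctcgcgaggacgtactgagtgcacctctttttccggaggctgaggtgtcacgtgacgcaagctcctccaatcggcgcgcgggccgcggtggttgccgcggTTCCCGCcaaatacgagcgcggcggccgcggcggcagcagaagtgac
Chaf1b: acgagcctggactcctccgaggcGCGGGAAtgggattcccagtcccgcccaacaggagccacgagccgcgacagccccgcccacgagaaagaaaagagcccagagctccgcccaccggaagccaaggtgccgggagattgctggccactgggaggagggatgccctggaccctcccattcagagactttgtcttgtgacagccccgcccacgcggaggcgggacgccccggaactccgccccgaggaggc
The match in Chaf1a reads TTCCCGC on the gene's strand, and those in Trim28 and Chaf1b are its reverse complement. The letters CACGTG, the E-box that MAX and its partners bind, were found in 1 of the 8 (Chaf1a) against 6.02% of all promoters.

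The first comparison asked whether the level of these regulators differed between ES cells of both conditions. Relative to library totals, 5 of the 10 stood higher and 5 lower in CX-5461, with a median log2 ratio of 0.07. Beyond 1.5-fold, 1 member was higher, Dppa4, where 37.2% of the 11752 genes with at least 200 UMIs were, and 1 was lower, Pcgf6, where 7.39% of genes were. All 10 members passed this minimum of UMIs.

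The median gene was itself 0.37 higher in CX-5461 on the log2 scale, and 73.1% of genes lay above 0. Set against that median gene, only Chaf1a and Dppa4 of the members lay above it, while Kdm1a, Chaf1b and Smchd1, higher on library totals, came out at -0.01, -0.18 and -0.10. After centring, 0 members were higher beyond 1.5-fold against 21.5% of genes, and 3 were lower (Trim28, Pcgf6 and Rnf2) against 17.2% of genes. The calls of both scalings rest on single libraries and are descriptions.

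**Figure D1:**
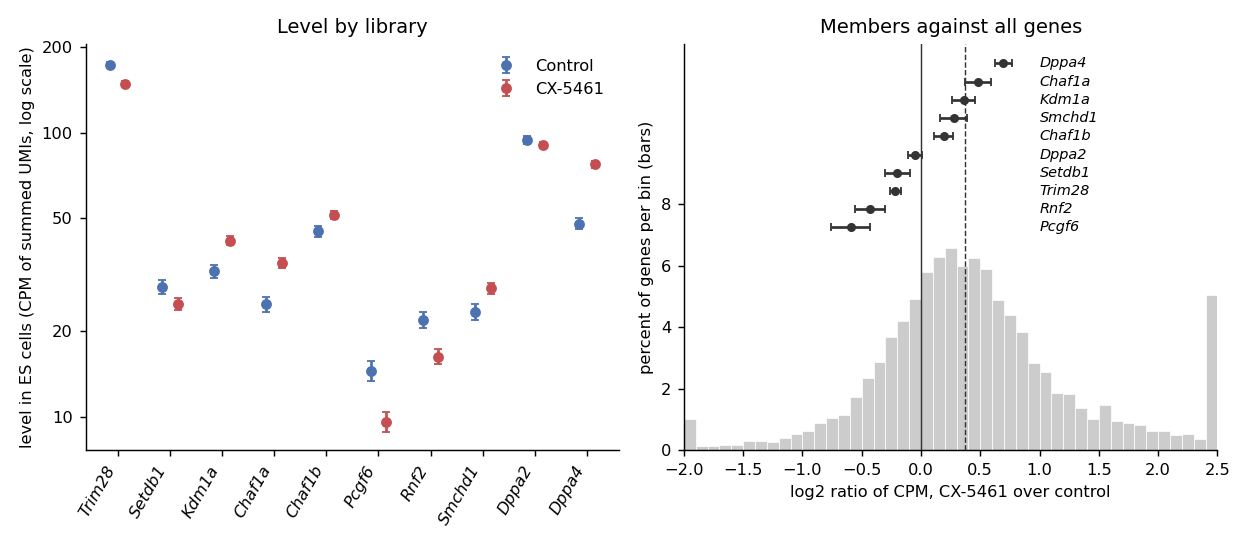
Left, level of each gene in ES cells as CPM of summed UMIs on a log axis, with exact 95% Poisson intervals, for the control and CX-5461 libraries. Right, the log2 ratio of CX-5461 over control for each gene with its interval above a histogram of 11752 genes (percent of genes per bin, with end bins holding the genes beyond them); the solid line marks 0 and the dashed line the median gene at 0.37. Dppa4 lies to the right of the dashed line and Pcgf6 farthest to the left.

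Of the genes that act in H3K9 methylation, Trim28 (KAP1), the scaffold corepressor that KRAB zinc finger proteins bring to retroviral elements, was at 172 CPM in control (interval 168.5 to 176.4) and 148 CPM in CX-5461 (145.4 to 151.4). Its log2 ratio was -0.22, and -0.59 against the median gene. Setdb1, the H3K9 methyltransferase that TRIM28 recruits, was at 28.6 CPM in control and 24.9 CPM in CX-5461, a log2 ratio of -0.20 (-0.31 to -0.09). Both genes were lower in CX-5461 under each of the 10 other settings tried, with log2 ratios between -0.59 and -0.13 for Trim28 and between -0.57 and -0.14 for Setdb1.

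Kdm1a (LSD1), the demethylase of H3K4 that works in the CoREST complex, was at 32.5 CPM in control and 41.6 CPM in CX-5461, a log2 ratio of 0.36, or -0.01 against the median gene. The large subunits of CAF-1, the chaperone that deposits H3 and H4 on newly made DNA, were at 24.9 against 34.7 CPM for Chaf1a and at 45 against 51.4 CPM for Chaf1b. Their log2 ratios were 0.48 (0.38 to 0.59) and 0.19 (0.11 to 0.27), and centring turned the sign for Chaf1b but not for Chaf1a. The summed level of 12 S-phase genes was 1346 CPM in control and 1358 CPM in CX-5461, while 12 G2/M genes summed to 1766 and 2217 CPM.

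Pcgf6 and Rnf2 belong to the Polycomb complex PRC1.6, in which PCGF6 is the defining subunit and RNF2 (RING1B) the ubiquitin ligase for H2A. Pcgf6 was counted 608 times in control and 621 times in CX-5461 in spite of the greater depth there, so that its level was 14.5 against 9.58 CPM and its log2 ratio -0.59 (-0.76 to -0.43). Rnf2 was at 21.9 and 16.3 CPM, a log2 ratio of -0.43 (-0.56 to -0.30). Both were lower in CX-5461 in each setting, with log2 ratios for Pcgf6 between -0.97 and -0.53, which straddle the 1.5-fold limit. Smchd1, a non-canonical SMC protein that keeps clustered loci silent, was at 23.4 CPM in control and 28.3 CPM in CX-5461, a log2 ratio of 0.27 that centring turned to -0.10.

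The activators differed from each other. Dppa4 was at 47.8 CPM in control (45.7 to 49.9) and 77.4 CPM in CX-5461 (75.2 to 79.5), a ratio of 1.62 (1.54 to 1.71), which stayed above the median gene by 0.32 on the log2 scale. Dppa2 was at 93.9 and 90.6 CPM, a log2 ratio of -0.05 (-0.11 to 0.01). These genes are neighbours on chromosome 16, on the same strand, with 9.67 kb between the end of Dppa4 and the start of Dppa2, and their products form a heterodimer. No counts of either were marked as shared with another gene.

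The share of cells in which a gene was seen gave the same directions at equal depth. For this, UMIs of each cell were drawn at random down to 3100, and shallower ES cells (95 in control, 20 in CX-5461) were set aside. Dppa4 was then detected in 13.5% (12.1 to 14.9) of the control cells and in 20.7% (19.54 to 21.9) of those with CX-5461. Without thinning these shares were 50.4% and 60.6%. Trim28 was detected in 40.5% and 34.0% of thinned cells, and Pcgf6 in 4.44% and 2.71%. The interval of each of these 3 genes in one library lay apart from that in the other.

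The 5 genes with a higher share of thinned cells in CX-5461 were Kdm1a, Chaf1a, Chaf1b, Smchd1 and Dppa4, the same 5 that were higher by CPM. Kdm1a was seen in 9.47% of control and 11.3% of CX-5461 cells, and Chaf1b in 14.1% and 14.7%, shares whose intervals overlapped in both cases. In fibroblast-like cells, which should lack the activators, thinned shares were 0.952% in control and 0.602% in CX-5461 for Dppa2 as well as for Dppa4. The median fibroblast-like cell had 20349.5 and 23434 UMIs, and unthinned shares there were 6.76% and 4.82% for Dppa2 and 2.70% and 4.22% for Dppa4. Dppa2 and Dppa4 shares in ES cells were far above that background, and for the repressors fibroblasts are not cells that lack the gene.

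**Figure D2:**
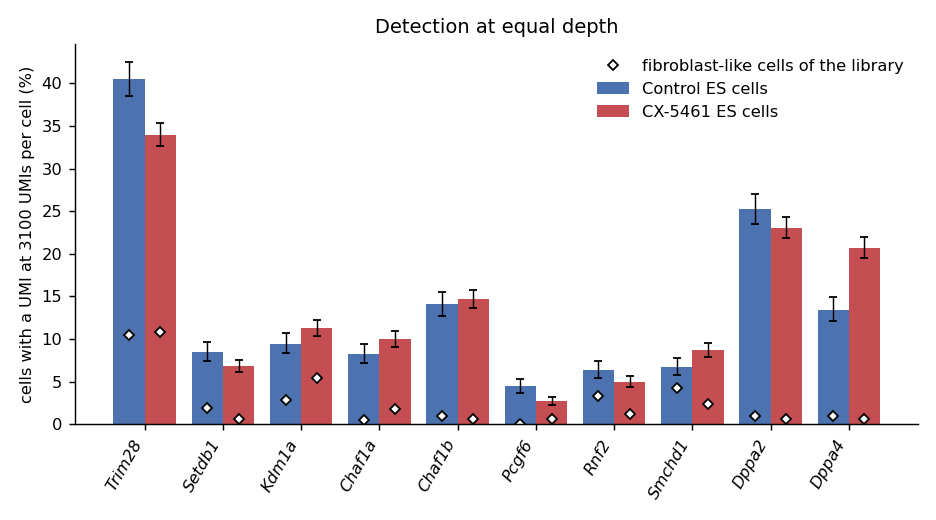
Share of ES cells with at least 1 UMI of each gene after thinning every cell to 3100 UMIs, in percent, for control and CX-5461, with exact 95% Clopper-Pearson intervals; open diamonds give the same share in the fibroblast-like cells of each library. Trim28 stands at 40.5% and 34.0%, and Dppa4 at 13.5% and 20.7%.

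Trim28 molecules were spread unevenly over cells. If each ES cell gave Trim28 the same part of its UMIs, 719 of the 4530 CX-5461 cells would have had none, whereas 1062 did, 1.48 times as many. In control, 348 cells had none against 289 from depth, or 1.21 times. The quotient cannot be set beside that of the other members, which have lower levels and so many cells without a UMI from depth alone. The variance beyond counting error, relative to the squared level expected from depth, was 0.133 for Trim28 in control and 0.238 in CX-5461. The other members ranged from 0.0967 (Rnf2) to 0.43 (Pcgf6) in control and from 0.0521 (Setdb1) to 0.256 (Pcgf6) in CX-5461. By that measure the unevenness was not particular to Trim28.

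Levels of Trim28 also differed between clusters of CX-5461 cells, which are described here without a test because the clustering used the same counts. Trim28 was at 163 CPM in the largest cluster (2274 cells) and 184 CPM in another of 629 cells, but at 94.5 CPM in one of 1019 cells and at 11.1 CPM (5.74 to 19.4, from 12 UMIs) in one of 92 cells. The control ES-like clusters of over 300 cells lay between 168 and 180 CPM. The cluster of 92 cells was led by Krt15 and Rgs14, and its ES markers stood at 0.61 of their level in all cells. It also had the lowest Dppa2 (28.7 CPM) and Dppa4 (37.95 CPM) of the CX-5461 ES clusters, whereas Chaf1b was at 46.3 CPM there, near the 51.4 CPM of all CX-5461 ES cells.

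Cells with a Krt15 UMI, a keratin gene picked after the clusters were seen, numbered 715 in CX-5461 and 0 in control. Trim28 was at 97.2 CPM in them (91.2 to 103.5) and at 158 CPM in the 3815 CX-5461 cells without Krt15. Setdb1 (19.8 against 25.8 CPM) and Dppa2 (73.7 against 93.7 CPM) were lower in the Krt15 cells as well, while Chaf1a was at 39.3 against 33.9 CPM. Without the Krt15 cells the log2 ratio of Trim28 between conditions was -0.13 in place of -0.22, and that of Pcgf6 became -0.58, just inside the 1.5-fold limit.

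**Figure D3:**
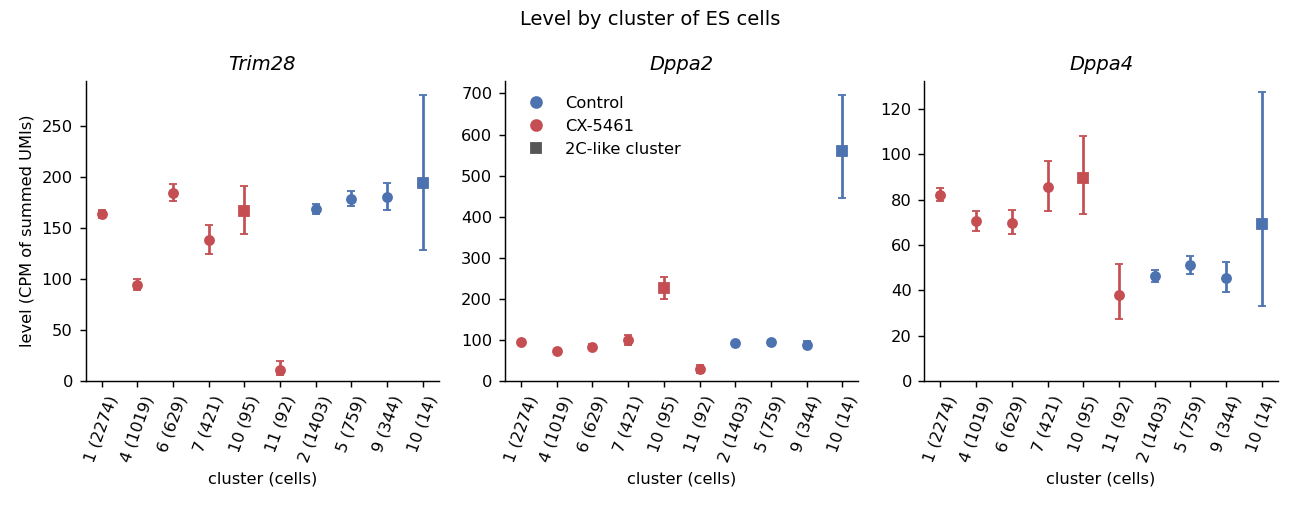
Level of Trim28, Dppa2 and Dppa4 (CPM of summed UMIs, exact 95% Poisson intervals) in each ES cluster of each library; the number of cells follows the cluster number, and squares mark the 2C-like cluster. Trim28 is at 11.1 CPM in the CX-5461 cluster of 92 cells, and Dppa2 is highest in the 2C-like cluster of both libraries.

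The second comparison set cells that expressed the 2C program against those that did not, within each library. Zscan4a-f, near-identical genes whose counts were summed, reached 5 or more UMIs in 9 control and 51 CX-5461 ES cells and were at 0 in 2492 and 4351. The 9 cells held 106446 UMIs and the 51 cells 706641. In CX-5461, 7 of the 10 members had the 20 UMIs expected in Zscan4 cells that were asked of a gene, and Setdb1, Pcgf6 and Rnf2 did not. Of those 7, 1 was higher beyond 1.5-fold (Dppa2) where 3.23% of 3810 genes were, and 1 was lower (Chaf1b) where 11.3% of genes were. In control, 0 members met the minimum among 728 genes, of which 3.02% were higher and 15.9% lower, so levels there are given with their intervals alone.

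Dppa2 was the member with the greatest difference. In CX-5461 it was at 88.1 CPM in cells without Zscan4, 114 CPM in cells with 1 to 4 Zscan4 UMIs and 253 CPM (217.6 to 293.3) in cells with 5 or more, a ratio of 2.88 (2.46 to 3.34). Of the 3810 genes, 99.6% had a lower ratio. It was seen in 43 of the 51 Zscan4 cells, with a median of 3 UMIs and a highest value of 17, against a median of 1 UMI in cells without Zscan4. The control library gave 92.4, 131 and 526 CPM for the same groups, but 32 of the 56 UMIs in its 9 Zscan4 cells came from 1 cell, and without that cell the level was 245 CPM.

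Dppa4, the partner of Dppa2, did not follow it. In CX-5461 it was at 77.4 CPM in cells without Zscan4 and 75 CPM (56.2 to 98.1) in cells with 5 or more, a log2 ratio of -0.05 (-0.46 to 0.34). In control it was at 47.6 and 65.8 CPM, the latter from 7 UMIs with an interval of 26.4 to 135.5. Over all 51 cells of CX-5461 the interval leaves room for a difference of up to 1.27-fold upward, well under that of Dppa2. These cells were also split at 20 Zscan4 UMIs, a limit set after the values had been seen. Dppa4 was at 88.7 CPM (64.5 to 119.1) in the 35 cells with 5 to 19. In the 16 cells with 20 or more it was at 42.7 CPM (19.5 to 81.1, from 9 UMIs). Both ratios to cells without Zscan4 had intervals that include 1.

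Cells can also be split the other way. Among CX-5461 ES cells with at least 10000 UMIs, 1088 had no Dppa2 UMI and 2604 had at least 1, and 5 or more Zscan4 UMIs were found in 2 of the former (0.184%, 0.0223 to 0.662) and 37 of the latter (1.42%, 1.00 to 1.95). The cells with Dppa2 were deeper, with a median of 15778.5 UMIs against 13912.5, and that part was not tested. For Dppa4 the same shares were 1.117% without and 1.03% with a UMI.

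Trim28 did not vary in one direction with Zscan4. It was at 148 CPM in CX-5461 cells without Zscan4, 150 CPM at 1 to 4 UMIs, 242 CPM (200.6 to 289.4) in the 35 cells with 5 to 19 Zscan4 UMIs, and 52.2 CPM (26.1 to 93.4) in the 16 cells with 20 or more. The bands at 20 were set after the values had been seen. Relative to cells without Zscan4, the ratio was 1.64 (1.36 to 1.96) in the first of these bands, above that of 98.6% of 2978 genes, and 0.353 (0.176 to 0.632) in the second, where 4.1% of 1510 genes were lower. Over all 51 cells both bands combined to 185 CPM, a log2 ratio of 0.33 (0.07 to 0.57) that describes neither.

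In CX-5461, most of the cells with the most Zscan4 had no Trim28 UMI. Of the 16 cells, 11 had no Trim28 UMI, where 2.91 would at the level of cells without Zscan4, and the 8 cells with 40 or more Zscan4 UMIs had no Trim28 UMI among 90847 UMIs, where 13.4 would have been counted. That count of 0 allows up to 40.6 CPM. The limit of 40 was set after the values had been seen. The cell next below it, with 39 Zscan4 UMIs, had 3 Trim28 UMIs, so the count of 0 depends on where the limit was placed. Setdb1 and Kdm1a had no UMI in these 8 cells either, where 2.3 and 3.8 would have been counted. Chaf1a (1 against 3.1), Chaf1b (3 against 4.7), Smchd1 (1 against 2.6) and Dppa4 (3 against 7.0) had fewer UMIs than expected too. Rnf2 (3 against 1.5), Pcgf6 (1 against 0.9) and Dppa2 (11 against 8.0) did not. Upper limits were 40.6 CPM for Setdb1, 61.3 CPM for Chaf1a and Smchd1, and 96.5 CPM for Chaf1b and Dppa4. Each lies above the level of that gene in cells without Zscan4, so a lower level was not shown for these genes. For Kdm1a the limit of 40.6 CPM lies just below its 41.4 CPM in cells without Zscan4. In the 35 cells with 5 to 19 Zscan4 UMIs, 6 had no Trim28 UMI where 5.58 would. The expected numbers of cells without Trim28 assume 1 rate for all cells. That rule understates such cells, since among cells without Zscan4 it gave 693, where 1015 (23.3%) had none. Depth was alike in both bands, with a median of 12537 UMIs in the 35 cells and 12764 in the 16.

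Dppa2 was at 256 CPM (213.5 to 304.7) in the 35 cells and 247 CPM (184.3 to 323.6) in the 16. Of the 52 Dppa2 UMIs in the 16 cells, 17 came from 1 cell, and the 8 cells with 40 or more Zscan4 UMIs held 11 (121 CPM), where 8.0 would have been counted at the level of cells without Zscan4. Nelfa, a factor reported to act with TOP2A upstream of Dux and one of the related genes examined, stood at 32.4 CPM without Zscan4 and at 101 and 973 CPM in these bands. Summed ES markers stood at 6643 CPM (6418 to 6873) in the 35 cells and 6135 CPM (5805 to 6479) in the 16, and their part in the result was not tested. In control the bands held 6 and 3 cells, with Trim28 at 271 CPM (167.6 to 414.0) and 104 CPM (21.4 to 303.3), intervals that overlap. Of those 3 control cells, the ones with 64 and 80 Zscan4 UMIs had 1 and 2 Trim28 UMIs. Another with 80 had none among its 3105 UMIs.

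**Figure D4:**
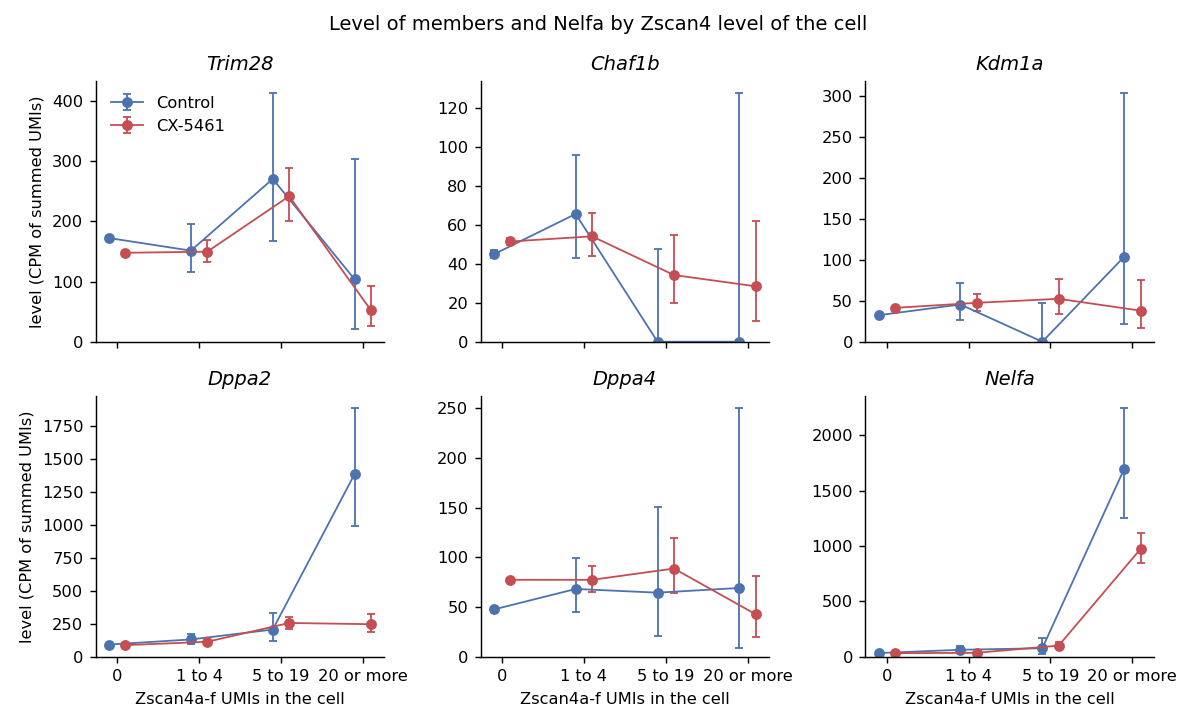
Level (CPM of summed UMIs, exact 95% Poisson intervals) of Trim28, Chaf1b, Kdm1a, Dppa2, Dppa4 and Nelfa in ES cells grouped by Zscan4a-f UMIs, for control and CX-5461. Trim28 in CX-5461 goes from 148 to 242 and then 52.2 CPM, while Dppa2 is at 256 and 247 CPM in the upper bands of that library, and at 121 CPM in the 8 cells with 40 or more Zscan4 UMIs, which are not drawn apart.

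**Figure D5:**
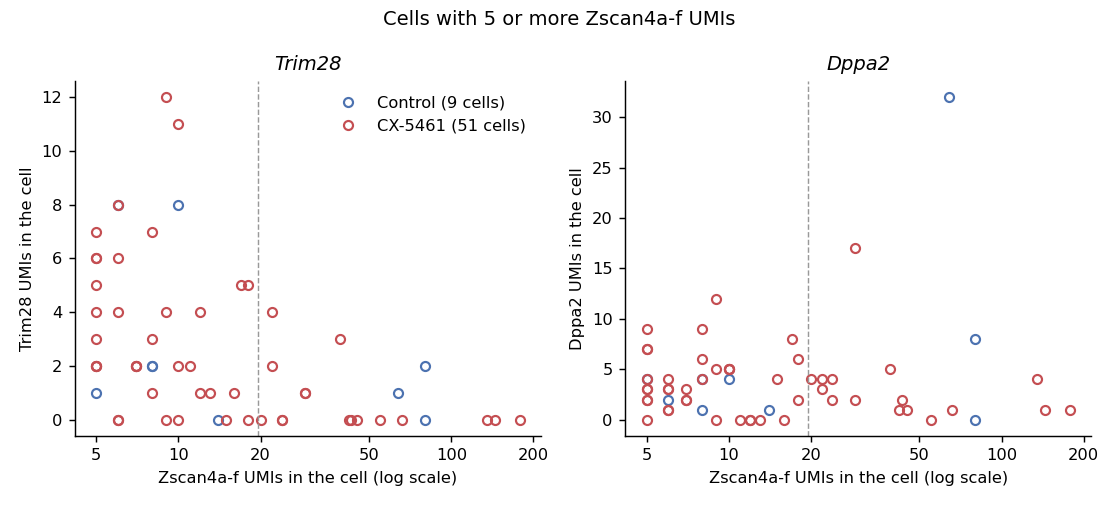
Each of the 9 control and 51 CX-5461 ES cells with 5 or more Zscan4a-f UMIs (log axis), with its Trim28 UMIs on the left and its Dppa2 UMIs on the right; the dashed line separates 19 from 20. No CX-5461 cell with 40 or more Zscan4 UMIs, a limit set after the values had been seen, has a Trim28 UMI, and 7 of those 8 cells have Dppa2.

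The same split of cells was made by Trim28. Of 649 CX-5461 ES cells with at least 10000 UMIs and no Trim28 UMI, 10 had 5 or more Zscan4 UMIs (1.54%, 0.741 to 2.82), against 29 of 3043 cells with Trim28 (0.953%, 0.639 to 1.37), shares whose intervals overlap. The summed Zscan4 level was 58.4 CPM in the former and 9.47 CPM in the latter, but 2 of the cells without Trim28 held 135 and 178 of their 544 Zscan4 UMIs. Cells with 4 or more Trim28 UMIs had a share of 1.6% as well.

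Of the 7 members with enough UMIs, Chaf1b had the lowest ratio in Zscan4 cells of CX-5461. In CX-5461 it was at 51.5 CPM without Zscan4 and 32.6 CPM (20.6 to 48.8) with 5 or more, a log2 ratio of -0.66 (-1.32 to -0.07), and 8.58% of genes had a lower one. It lay inside the 1.5-fold limit when centred on the median gene (-0.54), with at least 3 Zscan4 UMIs (-0.35) and over all kept cells (-0.58). In control none of the 9 cells held a Chaf1b UMI, where 5.55 of the 9 would have had none at the level of 44.9 CPM in the other cells. Chaf1a stood at 34.6 and 36.8 CPM in CX-5461, a log2 ratio of 0.09 (-0.53 to 0.64). The S-phase sum was lower in Zscan4 cells too, at 1105 against 1363 CPM in CX-5461 and 874 against 1347 CPM in control, and its part in the Chaf1b level was not tested.

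The remaining repressors gave wide intervals. Kdm1a was at 41.4 CPM without and 48.1 CPM with Zscan4 in CX-5461 (log2 ratio 0.22, -0.32 to 0.70), and Smchd1 at 28.6 and 22.6 CPM (-0.34, -1.15 to 0.37). Setdb1 was at 25 and 17 CPM from 12 UMIs, Pcgf6 at 9.57 and 12.7 CPM from 9 UMIs, and Rnf2 at 16.2 and 25.5 CPM from 18 UMIs, each with an interval of the ratio that includes 1. Rnf2 was seen in 18 of the 51 cells (35.3%, 22.4 to 49.9) and in 19.9% of cells without Zscan4, a share below that interval. Pcgf6 in control had 5 UMIs in the 9 cells, a ratio of 3.26 with an interval of 1.06 to 7.65. At this depth no difference in level was detectable for these 5 genes in CX-5461 by the interval of the ratio.

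The members were set beside 63 related genes of 7 lists. Between conditions, 43 of the 63 lay above 0 and 24 above the median gene, with 8 higher and 6 lower beyond 1.5-fold, where 37.2% of all genes were higher and 7.39% lower. Their median log2 ratio was 0.20, against 0.37 over all genes. Lin28a, the RNA-binding protein reported to bring NCL and TRIM28 to Dux and rDNA, had the lowest ratio, at 21.6 CPM in control and 2.04 CPM in CX-5461, a log2 ratio of -3.41 (-3.68 to -3.14). Of all genes, 0.06% had a lower one.

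Among 10 partners of TRIM28 and SETDB1 and other H3K9 genes, 7 were below 0 and 2 lower beyond 1.5-fold, where 73.1% of all genes lay above 0 and 7.39% were lower beyond 1.5-fold. These were Cbx3, the HP1γ protein that reads H3K9 methylation, at -1.78 on the log2 scale, and Ncl (nucleolin) at -0.61, while Morc3 was highest at 0.57. Cbx3 has many processed pseudogenes to which its reads could be divided. No counts of Cbx3 were marked as shared with another gene, and the part of the pseudogenes in its value was not tested. In 9 genes of the LSD1 complexes, 8 were above 0, with Phf21a at 0.82 on the log2 scale and Hdac2 lowest at -0.24. Of 9 histone chaperones, 7 were above 0, from Rbbp4 at -0.51, which encodes the small subunit of CAF-1, to Ubn1 of the HIRA complex at 1.09.

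Of the 14 genes of PRC1.6 and the PCGF paralogs, 9 were above 0, where 73.1% of all genes were. Pcgf3 (1.03) and Yaf2 (1.08) were higher beyond 1.5-fold, as were 37.2% of all genes. Pcgf2 (-0.88), Wdr5 (-0.84) and Rybp (-0.66) were lower, beside Pcgf6 itself at -0.59, where 7.39% of all genes were lower. Yaf2 and Rybp encode alternative subunits of the same kind. In the 5 genes of the HUSH complex and the SMCHD1 partner, Lrif1, that partner, was highest at 0.85 and Mphosph8 lowest at -0.11. SUMO genes, 7 in number, ranged from Sumo2 at -0.57 to Pias4 at 0.51, and of the 9 other reported modulators Dmap1 (0.91) and Dppa3 (0.68) were higher beyond 1.5-fold.

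In Zscan4 cells of CX-5461, 33 of the related genes had enough UMIs, of which 8 were above 0, with 1 higher and 3 lower beyond 1.5-fold. Of all 3810 genes 34.5% were above 0, 3.23% higher and 11.3% lower, and the median log2 ratio was -0.16 for the related genes and -0.12 over all. The higher one was Nelfa, at 32.4 against 361 CPM, a ratio of 11.1 (9.74 to 12.7). The lower ones were Cabin1 of the HIRA complex at -1.74, Cbx3 at -1.03 and Wdr5 at -0.60 on the log2 scale. In control, 7 had enough UMIs, and Trp53 at -0.72 was lower beyond 1.5-fold. Nelfa between conditions was at 35.1 and 36.1 CPM, so its level over all ES cells did not differ beyond its interval (log2 ratio 0.04, -0.06 to 0.13).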

How the data were processed

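Untreated and CX-5461-treated mES cells had been profiled by droplet single-cell RNA-seq. The authors deposited UMI counts for each gene in each barcode, without normalization, made with a published droplet pipeline; the submitters' processing notes name the build mm10 and Seurat 2.3.4, and the study's methods give Bowtie as that pipeline's aligner, exchanged for HISAT2 where repeats were counted. Library kits were 10x Genomics 3′ v2. The tables held 49610287 and 69841836 UMIs. Barcodes are serial numbers, so cells shared between libraries could not be counted.

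Barcodes under 500 UMIs or over 20% mitochondrial UMIs were removed, the limits given in the study's methods. The study shows fewer cells of each condition than were kept here, so its set of cells differs. Left were 3767 control and 4697 CX-5461 cells. These were clustered together (2000 variable genes, 16 principal components, 15 neighbours, Leiden 0.10.2 at resolution 0.5), and ES cells are the clusters named ES-like or 2C-like from marker lists. No doublet caller was run. Symbols came from GENCODE M21 (54079 of 54146 identifiers matched). Levels are UMIs summed over cells as CPM with exact Poisson intervals, ratios have exact conditional binomial intervals, and shares have Clopper-Pearson intervals, at 95%. A count of 0 is read with its upper limit. A gene was called past 1.5-fold, with at least 200 UMIs over both libraries, or with at least 20 UMIs expected in Zscan4 cells. No p-value was computed, since cells of 1 library are not replicates. Ratios and thinning were tested on simulated data. TMM factors used edgeR 4.0.16.

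The 10 genes and the related lists were chosen with earlier results of these data known. Named are the 10 genes, Zscan4a-f and Duxf3, related genes past 1.5-fold, and the highest and lowest of each related list, of which 1 is not reported here; Krt15, Rgs14, Nelfa and the Zscan4 bands were picked once their values were known. Promoter sequences are from RefSeq on GRCm38.p6. The authors' ambiguous counts served only as a check of single genes.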

Additional observations from a re-analysis of the deposited data

How the results depend on the processing

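No paired analysis was possible because the tables carry no sample of origin, and for the same reason no replicate could be left out. Of the conditions comparison, 2 members passed 1.5-fold with library totals, TMM factors (Pcgf6 and Rnf2, both lower), mean CPM over cells, thinned cells and without the 5% of ES cells with the most UMIs, and 3 after centring. The count was 1 (Dppa4) with all kept cells, with or without fibroblast-like cells, with all barcodes, with stricter cell filters and without Krt15 cells, the last added after seeing the data; Pcgf6 then lay just inside the limit. Of the Zscan4 comparison in CX-5461, 2 members passed in the reported setting and 1 (Dppa2) with at least 3 or at least 10 Zscan4 UMIs, with all kept cells and after centring, where Chaf1b fell inside the limit or below the minimum. With thinned cells the count was 0, since only 1 member had enough UMIs. With 20 or more Zscan4 UMIs only 1 member, Trim28, had enough, and it was lower. With 5 to 19 Zscan4 UMIs the count was 3 (Trim28 and Dppa2 higher, Chaf1b lower). Both bands were added after seeing the data. In control the count was 0 in each of the 10 settings, but at most 1 member had enough UMIs to be called in any of them. That count therefore says nothing about how stable the control levels are. The 5 members with a higher thinned share in CX-5461 became 4 without thinning and 6 with all kept cells. With 1 library per condition, neither spread between cultures nor a batch can be told apart from the treatment, and the 9 and 51 Zscan4 cells limit what can be detected.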

Other observations

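The repressors were also present in the fibroblast-like cells, 222 in control and 166 in CX-5461. Trim28 was at 41.1 CPM in those of control and 35.0 CPM in those of CX-5461, Smchd1 at 19.3 and 17.0 CPM, Rnf2 at 13.3 and 9.88 CPM, and Kdm1a at 10.3 and 21.8 CPM. The CAF-1 genes were at 3.72 and 3.04 CPM for Chaf1a and at 5.69 and 3.04 CPM for Chaf1b, beside S-phase sums of 208 and 125 CPM. Dppa2 and Dppa4 were between 1.31 and 4.16 CPM in both libraries.

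In the shallow control cluster without a name, 1020 cells with a median of 2293 UMIs, Trim28 was at 158 CPM, Dppa2 at 69.8 CPM, Dppa4 at 40.4 CPM and Chaf1b at 34.2 CPM. Trim28 there lay near its level in control ES cells and Dppa2 below it (interval 60.5 to 80.1 CPM).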
